A study of Mus musculus with 9 samples.

Results

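The citric acid cycle enzymes measured here are 9 genes chosen by symbol: Cs, Idh3a, Idh3b, Idh3g, Ogdh, Dlst, Suclg1, Fh1 and Mdh2. All 9 were found among the 3958 genes of the count table, and all 9 passed the filter on low counts, which removed no gene. RNA was sequenced from adipose tissue of male C57BL/6J mice, a common inbred strain, at day 21. The design text names 3 groups, ND, HFD and HFD+EA, in mice made obese on HFD (commonly a high-fat diet); electroacupuncture passes current through acupuncture needles. The libraries form 3 groups of 3: EA (titled APX, numbers 5, 7 and 8), whose treatment label is EA, and MPX (2, 5 and 7) and CPX (4, 6 and 8), which carry no treatment label. The labels do not say which of the prefixes MPX and CPX is ND and which HFD, which fat depot was taken, or whether the libraries are from different mice; the p-values therefore describe variation among these libraries, which may be technical.

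The citric acid cycle runs in the mitochondrial matrix and oxidises the acetyl group of acetyl-CoA to carbon dioxide, passing electrons to the respiratory chain as NADH and as reduced flavin. Citrate synthase opens the cycle, isocitrate and 2-oxoglutarate dehydrogenases release the carbon dioxide, and succinyl-CoA synthetase, succinate dehydrogenase, fumarase and malate dehydrogenase restore oxaloacetate. In white fat, citrate from the cycle is also exported to the cytosol, where ATP citrate lyase turns it into the acetyl-CoA from which fatty acids are built.

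The listed counts per library ran from 12115183 to 14208853; they are sums over the most abundant genes and not sequencing depths. Levels are CPM, counts per 1000000 listed counts of the library after TMM scaling (edgeR's correction for differences in composition). Single members had between 1176 and 10351 counts in a library, so that counting error was at most 2.92% of a value, far below the spread between libraries. All 14 adipocyte markers looked for were listed, with summed levels of 42350 to 65140 CPM in EA, 66790 to 73440 CPM in MPX, and 11040 to 123500 CPM in CPX. CPX 6 had the lowest sum, and its 8 listed B cell markers (of 11) summed to 3615 CPM, while the sum was 18.6 CPM for CPX 4 and 54.7 CPM for CPX 8. The same B cell sum was 655.9 to 1942 CPM over the EA libraries, against 27.7 to 50.3 CPM over the MPX libraries. Sums of 9 macrophage markers were 2785 to 6657 CPM (EA), 1367 to 3988 CPM (MPX) and 1557 to 4308 CPM (CPX), and those of 8 endothelial and 8 fibroblast markers overlapped between all groups. None of 7 brown adipocyte markers and none of 8 skeletal muscle markers were among the listed genes, and they were not analysed here. In bulk tissue, fewer cells of a type and less RNA per cell cannot be told apart.

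The cycle genes varied together between single libraries, and no member passed the test of a difference between groups. Relative to its own mean over 9 libraries, the average member stood on the log2 scale at 0.41 in EA 5, -0.14 in EA 7 and -0.34 in EA 8. The corresponding deviations were 0.11 in MPX 2, -0.060 in MPX 5 and 0.17 in MPX 7, and 0.63 in CPX 4, -0.76 in CPX 6 and -0.0060 in CPX 8. After TMM scaling the highest and the lowest library were thus both CPX libraries, with the MPX libraries close to the middle. All 9 members were lowest in CPX 6, and 8 of 9 were highest in CPX 4, the exception being Ogdh, which was highest in EA 5. The place of CPX 4 rests on its TMM factor of 0.753, the smallest of any library. On column sums alone the summed members were highest in EA 5, and still lowest in CPX 6. The ratio of the highest to the lowest library ran from 2.03 (Dlst) to 4.92 (Idh3a), with a median of 2.75 over the members and 2.67 over all genes. Within groups, the median coefficient of variation of the members was 26.5% in EA, 11.5% in MPX and 47.9% in CPX, and that of all genes was 14.9%, 10.8% and 43.0% in the same groups. Over all listed genes, CPX 4 and CPX 6 were also the replicates whose counts differed most (chi-square per degree of freedom 1741). How many of all genes had the same highest and lowest library was not counted. The extremes are therefore not read as particular to the cycle genes.

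**Figure D1:**
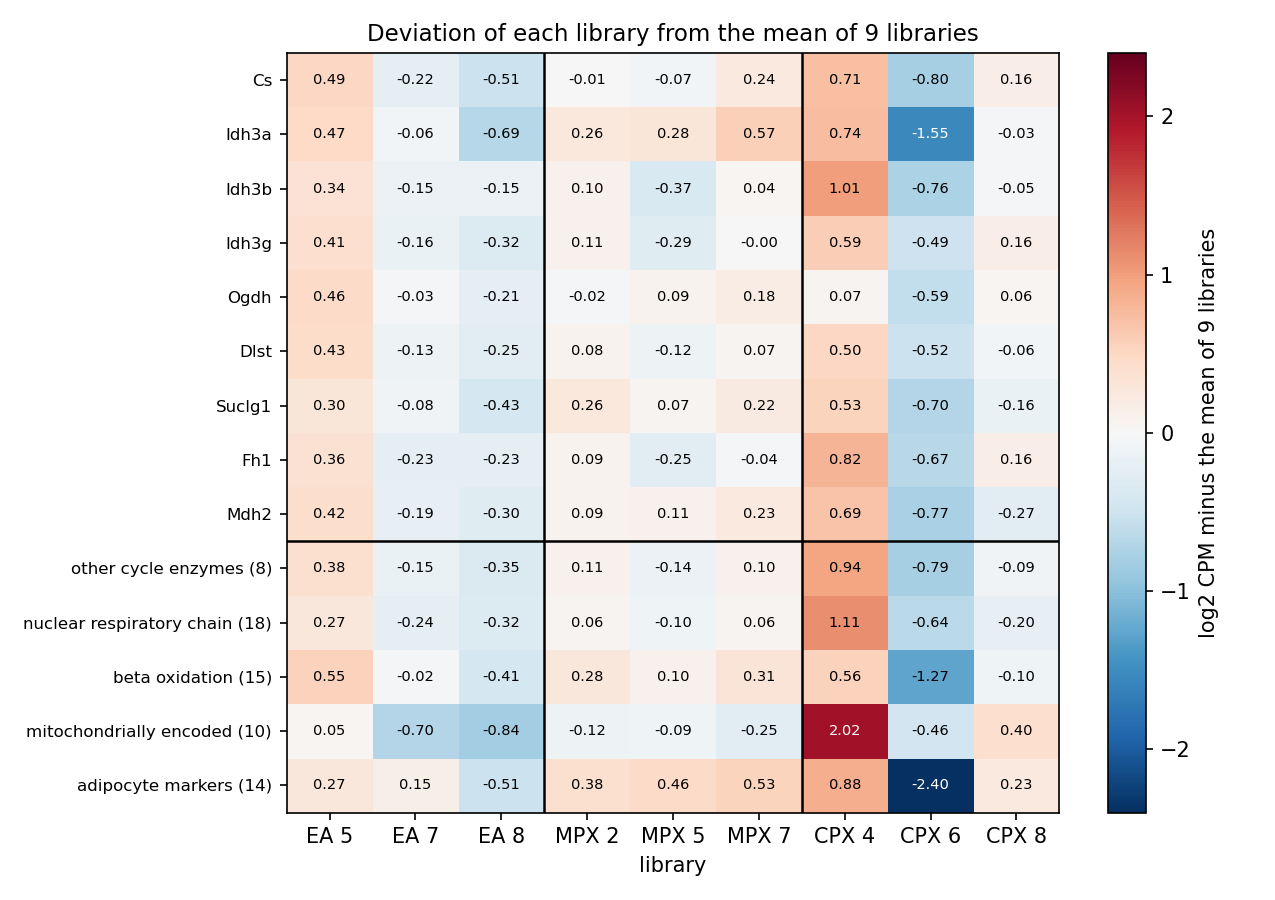
Deviation of log2 CPM from the mean of 9 libraries for each citric acid cycle member (rows above the line) and the mean deviation of 5 gene lists (below it, number of listed genes in brackets), by library. Red cells are above and blue cells below the mean; CPX 6 is blue in every row, and CPX 4 is red in every row, with Ogdh the palest at 0.065.

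Adipocyte markers were high and low in the same extreme libraries as the members, but not in all libraries. The mean log2 deviation of the members was 0.63 in CPX 4 and -0.76 in CPX 6, where that of the 14 markers was 0.88 and -2.395. In EA 7, MPX 5 and CPX 8 the signs differed: the members stood at -0.14, -0.060 and -0.0060, and the markers at 0.15, 0.46 and 0.23. Set against the adipocyte markers, the summed members came to 5.47, 4.44 and 4.89 CPM per 100 CPM of markers in EA 5, 7 and 8. In MPX 2, 5 and 7 the ratio was 4.19, 3.56 and 4.17, and in CPX 4, 6 and 8 it was 3.28, 14.2 and 4.2. On this ratio of sums the EA and MPX libraries did not overlap. Of the ratios between 2 single genes of the count table, 39.8% did not overlap either, but no background was formed for ratios of sums. The summed members themselves overlapped (2071 to 3564 CPM in EA, 2614 to 3050 CPM in MPX), and the marker sums did not. CPX 6 stood far above all other libraries on the ratio. On the mean of log2 deviations EA and MPX overlapped slightly: the members' mean minus the markers' mean was -0.285 in EA 7 and -0.278 in MPX 2. The part of fat cell content in the members' levels was not tested.

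Because the members moved together between libraries, the bases around their start sites were read. RefSeq promoter windows (GRCm38.p6, 250 bases before to 50 after a start site) were matched by symbol for 8 of the 9 members, 13 windows in all, 6 of them windows of Ogdh that partly overlap. Motifs of factors known to act on nuclear genes for mitochondria were searched on both strands: CCGGAAG for GABPA, AAGGTCA for the estrogen-related receptors, and the longer palindromic motif of NRF1. The GABPA letters were in 3 of 13 windows, those of Idh3b, Idh3g and Dlst, against 15.4% of 4074 windows of genes in the count table and 8.86% of all 32851 windows. The receptor motif was in 1 window, of Ogdh, against 2.75% of windows of genes in the table and 4.72% of all. The NRF1 motif was in 0 of the 13 windows, against 14.9% and 6.23%. In 6 windows of cycle enzymes outside the members, the GABPA, receptor and NRF1 motifs were in 2, 1 and 4. The CCAAT, GC and TATA boxes were searched too, and were in 9, 8 and 0 of the 13 windows. Of windows of genes in the table, 35.4%, 66.8% and 7.49% held them. By gene, CCAAT was in 4 of 8 members. Below, a match is one of the GABPA, receptor or NRF1 motifs. It describes letters and not a bound site, and these motifs do not overlap one another in the windows. The windows with a match are printed 5′ to 3′ on the gene's strand, with the matched letters in capitals (CTTCCGG and TGACCTT are the motifs on the other strand); their positions are chr2:130284402-130284701 (minus strand, Idh3b), chrX:73786848-73787147 (minus strand, Idh3g), chr12:85110583-85110882 (plus strand, Dlst) and chr11:6291920-6292219 (plus strand, Ogdh).
Idh3b: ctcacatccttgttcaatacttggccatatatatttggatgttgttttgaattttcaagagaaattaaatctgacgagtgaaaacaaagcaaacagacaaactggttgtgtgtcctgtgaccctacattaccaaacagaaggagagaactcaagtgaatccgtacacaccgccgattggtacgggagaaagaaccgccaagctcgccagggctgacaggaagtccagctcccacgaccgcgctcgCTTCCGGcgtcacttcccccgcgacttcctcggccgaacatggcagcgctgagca
Idh3g: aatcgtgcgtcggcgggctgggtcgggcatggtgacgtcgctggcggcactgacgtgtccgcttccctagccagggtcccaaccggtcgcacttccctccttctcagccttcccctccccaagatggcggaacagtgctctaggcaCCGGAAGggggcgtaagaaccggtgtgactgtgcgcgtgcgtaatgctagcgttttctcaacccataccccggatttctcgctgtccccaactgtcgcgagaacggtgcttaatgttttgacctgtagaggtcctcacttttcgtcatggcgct
Dlst: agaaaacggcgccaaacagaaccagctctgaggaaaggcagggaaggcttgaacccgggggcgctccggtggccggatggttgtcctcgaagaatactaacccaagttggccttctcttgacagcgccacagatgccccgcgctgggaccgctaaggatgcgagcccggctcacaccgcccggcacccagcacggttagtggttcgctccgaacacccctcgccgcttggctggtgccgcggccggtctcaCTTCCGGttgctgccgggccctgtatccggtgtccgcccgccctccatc
Ogdh: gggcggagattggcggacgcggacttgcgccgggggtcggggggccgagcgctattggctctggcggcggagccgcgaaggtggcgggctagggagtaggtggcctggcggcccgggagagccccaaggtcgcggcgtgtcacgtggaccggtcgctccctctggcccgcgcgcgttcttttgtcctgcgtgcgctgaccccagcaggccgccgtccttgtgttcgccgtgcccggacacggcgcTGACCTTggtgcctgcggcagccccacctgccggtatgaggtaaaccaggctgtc
The Idh3b, Dlst and Ogdh matches begin within 5 bases of the start site of their window, and the Idh3g match begins 104 bases before it. The Ogdh window with the match begins at 6291920, inside the gene as annotated, which begins at 6291633. The start site of the Idh3b window also lies inside its annotated gene, which on the minus strand begins at 130284547. The other Ogdh windows had no receptor motif. Whether these letters bear on the members' levels was not tested.

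Entry into the cycle depends on Cs, citrate synthase, which joins acetyl-CoA to oxaloacetate (ENSMUSG00000005683, mm10, chromosome 10, 128337734 to 128362479, plus strand). Cs had 764.0, 465.9 and 380.1 CPM in EA 5, 7 and 8, against 538.2, 515.6 and 640.4 CPM in MPX 2, 5 and 7 and 889.6, 312.0 and 607.8 CPM in CPX 4, 6 and 8. EA 5 lay above all MPX libraries and EA 7 and EA 8 below them. Per kb of the gene length in the authors' table, Cs averaged 92.9 ± 34.9 CPM for EA, 97.7 ± 11.5 CPM for MPX and 104.4 ± 49.98 CPM in CPX (SD of 3 libraries per group). It was the most abundant member per kb in EA and CPX and stood below Mdh2 in MPX, where Mdh2 averaged 101.4 ± 5.65 CPM per kb; these differences were smaller than the SD.

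**Figure D2:**
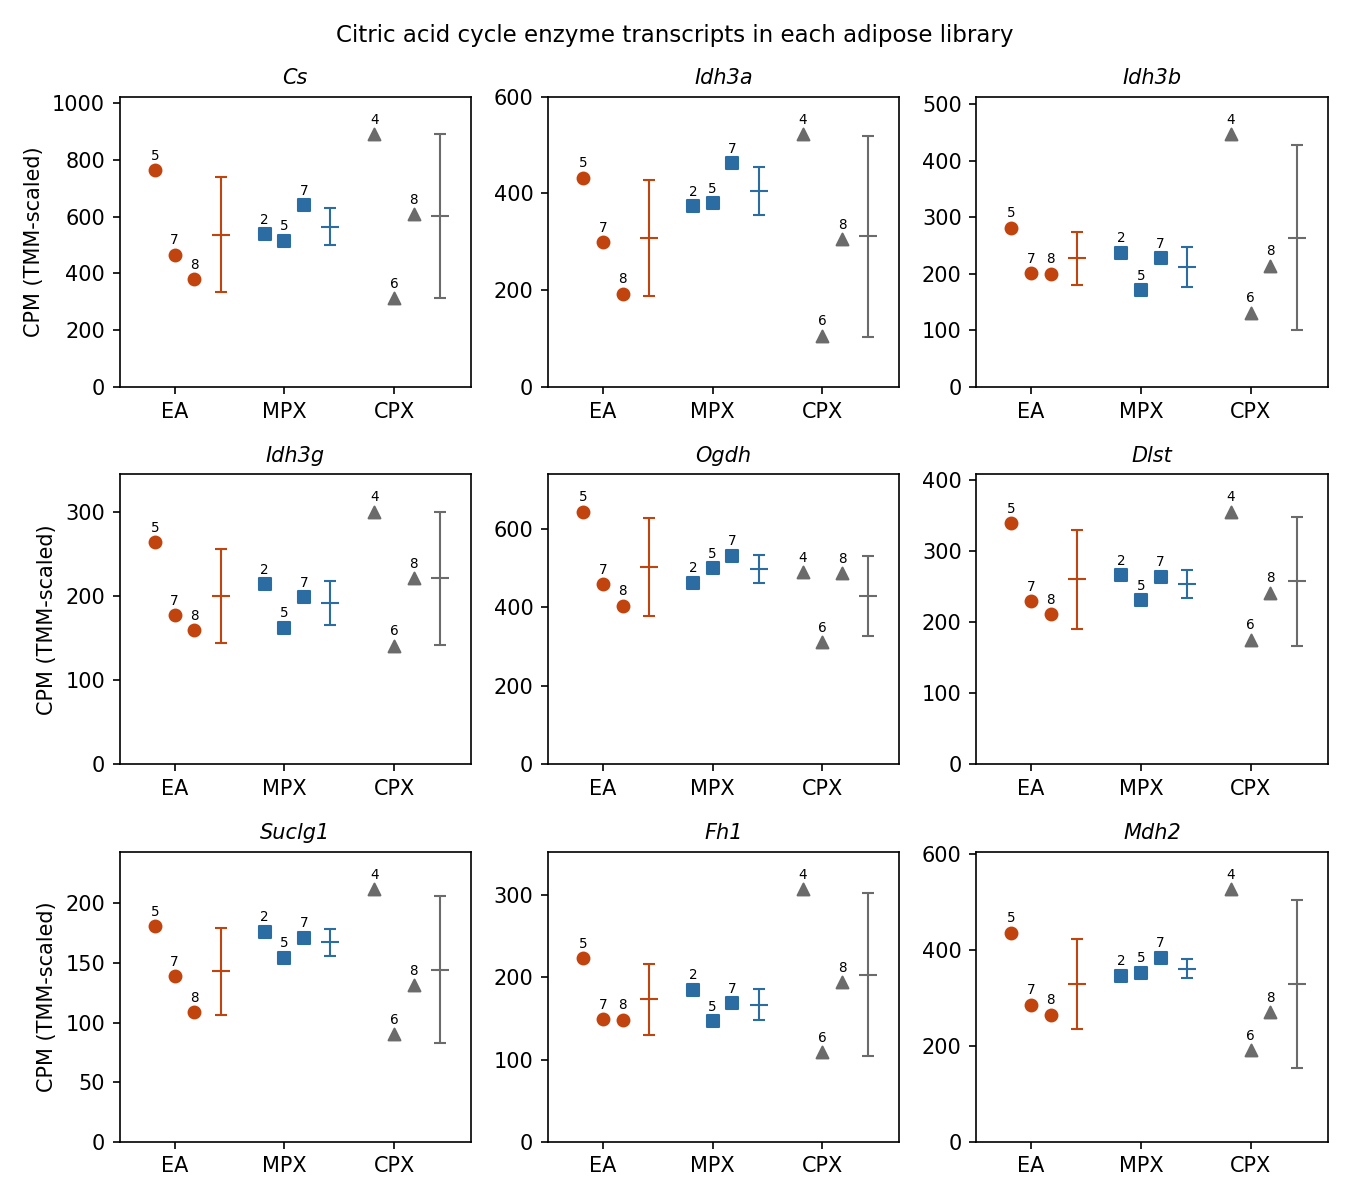
TMM-scaled CPM (vertical axes, from 0) of the 9 citric acid cycle members in each library, by group; numbers beside points are library numbers, and bars show the mean and SD of 3 libraries. CPX 6 is the lowest library in every panel, MPX spans the narrowest range in every panel, and no group is separate from another.

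The NAD-dependent isocitrate dehydrogenase, which releases the first carbon dioxide, is built from a catalytic subunit (Idh3a) and the subunits Idh3b and Idh3g. Idh3a (chromosome 9, 54586334 to 54604661, plus strand) had 432.4, 298.5 and 193.0 CPM in EA 5, 7 and 8, against 372.9, 379.4 and 462.4 CPM in MPX 2, 5 and 7 and 521.9, 106.2 and 305.0 CPM in CPX 4, 6 and 8. It was the member with the widest range, and its CPX 6 value was the lowest of any member relative to its own mean (-1.55 on the log2 scale). Idh3b (chromosome 2, 130279309 to 130284547, minus strand) had 281.2, 200.5 and 200.1 CPM in EA, against 237.5, 171.4 and 227.9 CPM in MPX and 446.3, 130.9 and 213.9 CPM in CPX. Idh3g (chromosome X, 73778963 to 73786897, minus strand) had 263.9, 177.5 and 159.4 CPM in EA, against 214.4, 162.8 and 198.6 CPM in MPX and 300.3, 141.4 and 221.6 CPM in CPX. Both genes were lowest in CPX 6 and highest in CPX 4, and in both MPX 5 was the lowest MPX library, whereas in Idh3a MPX 2 was. The Idh3b gene overlaps Nop56 on the opposite strand in GENCODE M21; the strand setting of the counting is not given in the sources used here, so reads of both cannot be told apart where they overlap.

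The 2-oxoglutarate dehydrogenase complex, which releases the other carbon dioxide, was represented by its first enzyme Ogdh and by Dlst, its succinyl-transferring core. Ogdh (chromosome 11, 6291633 to 6356642, plus strand) had 643.2, 458.9 and 404.4 CPM in EA 5, 7 and 8, against 462.4, 499.3 and 532.0 CPM in MPX 2, 5 and 7 and 490.2, 311.7 and 486.7 CPM in CPX 4, 6 and 8. Ogdh differed from the other members in CPX 4, where it stood 0.065 above its mean on the log2 scale and the other 8 members 0.50 to 1.01 above theirs. Dlst (chromosome 12, 85110833 to 85134845, plus strand) had 339.5, 230.0 and 211.7 CPM in EA, against 266.5, 231.3 and 264.2 CPM in MPX and 355.5, 175.5 and 241.6 CPM in CPX. It had the narrowest range over the 9 libraries and was the least abundant member per kb, at 27.2 ± 7.23 CPM for EA, 26.6 ± 2.06 CPM for MPX and 26.9 ± 9.52 CPM in CPX (SD of 3 libraries per group). The ratio of Ogdh to Dlst per kb was 3.32, 3.50 and 3.35 in EA, 3.04, 3.78 and 3.53 in MPX, and 2.42, 3.11 and 3.53 in CPX, so that CPX 4 held the lowest ratio and the groups overlapped.

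Suclg1, the alpha subunit shared by the ATP-forming and GTP-forming succinyl-CoA synthetases (chromosome 6, 73248382 to 73276911, plus strand), had 180.7, 138.8 and 108.9 CPM in EA 5, 7 and 8. It had 176.2, 154.5 and 171.2 CPM in MPX 2, 5 and 7 and 211.6, 90.3 and 131.1 CPM in CPX 4, 6 and 8. EA 7 and EA 8 lay below all MPX libraries, but EA 5 lay above them. Fh1, fumarase, which hydrates fumarate to malate (chromosome 1, 175600374 to 175625635, minus strand), had 223.1, 148.8 and 148.4 CPM in EA, against 185.0, 146.7 and 168.7 CPM in MPX and 306.8, 109.1 and 193.9 CPM in CPX. Mdh2, the mitochondrial malate dehydrogenase (chromosome 5, 135778480 to 135790398, plus strand), had 436.2, 285.8 and 265.2 CPM in EA, against 346.4, 352.9 and 384.0 CPM in MPX and 526.6, 191.5 and 270.2 CPM in CPX. The MPX libraries stood within a coefficient of variation of 5.57% for Mdh2, the smallest among the members, against 28.4% in EA and 53.2% in CPX. The Fh1 gene overlaps Kmo on the opposite strand, and its counts carry the same limit as those of Idh3b. All 9 members are annotated as protein coding, and their coordinates are the same in GENCODE M21.

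Per kb, Fh1, Suclg1 and Dlst held the last places, in this order, in every group. Cs, Mdh2, Ogdh and Idh3g averaged 98.3, 95.4, 87.3 and 75.7 CPM per kb over the 9 libraries, Idh3b and Idh3a 68.5 and 67.3, and Fh1, Suclg1 and Dlst 53.4, 32.8 and 26.9. The means of neighbours within the first 6 differed by less than the spread between libraries, which the members largely share. Within a library, Ogdh lay above Idh3g except in CPX 4 (89.85 against 111.2 CPM per kb). Idh3b lay below Idh3g except in CPX 4 (ratio 0.73 to 0.991, against 1.17). The remaining neighbours changed order between libraries. Suclg1 and Dlst lay below the other members in every library. How the authors' table formed gene length is not given in the sources used here, and a long annotated 3′ end lowers a value per kb.

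Electroacupuncture libraries were compared with MPX libraries by edgeR's quasi-likelihood test, fitted on all 9 libraries and adjusted after Benjamini-Hochberg over all 3958 genes. None of the 9 members passed an adjusted p of 0.05, and over all genes 0 genes (0%) did by edgeR, against 49 by DESeq2. At an unadjusted p under 0.05 there were 0 members, against 5.1% of all genes (2.1% higher and 3.01% lower), and DESeq2 and limma voom called 0 members too. Of the members, 5 had positive and 4 negative differences, against 51.4% and 48.6% of all genes, with a median log2 difference of 0.012, the same as the 0.012 of all genes. All 9 members overlapped between the groups, whereas 21.5% of all genes stood higher in EA without overlap and 19% lower. The largest difference was that of Idh3a, at -0.39 (SE 0.53, edgeR adjusted p = 0.817), with means of 308.0 ± 120.0 CPM for EA, against 404.9 ± 49.9 CPM for MPX (SD of 3 libraries). Its 95% interval ran from 0.326-fold to 1.77-fold. Suclg1 had -0.23 (SE 0.33, edgeR adjusted p = 0.822), with means of 142.8 ± 36.04 CPM for EA, against 167.3 ± 11.3 CPM for MPX. Of the 14 adipocyte markers, 12 had negative differences in EA minus MPX (median log2 difference -0.51), and their sums did not overlap. All 9 listed macrophage markers (median 0.62) had positive differences. So had all 8 listed B cell markers (median 6.58), but together they summed to at most 50.3 CPM in an MPX library. Genes were listed only from 8471 counts in total, so these markers were listed through libraries where they are high. Their count is therefore no test of direction. The part of these cell types in the members' values was not tested. The narrowest interval, that of Ogdh, still allowed 0.639-fold to 1.59-fold, so that differences within that range were not excluded here. Single libraries set the sign of most members: without EA 5 all 9 differences were negative (-0.72 to -0.084, median -0.21), of which 4 were negative with it, and without MPX 5 all 9 were negative as well (-0.46 to -0.011). Without EA 8 the median was 0.15, with 6 of 9 positive, and Idh3a stood at -0.15 and Suclg1 at -0.067.

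The EA libraries were then set against CPX, a comparison that has its EA libraries in common with the preceding one. Again 0 of 9 members passed by edgeR (0% of all genes, against 5 genes by DESeq2), 0 had an unadjusted p under 0.05 (2.96% of all genes, 0.96% higher and 2% lower), and DESeq2 and limma voom called 0 members. Positive differences were found for 2 of 9 members, Ogdh and Dlst, against 39% of all genes, and negative ones for 7, against 61%, and the median was -0.015, beside -0.093 over all genes. All 9 members overlapped, against 2.1% of all genes higher and 5.08% lower in EA without overlap. The mean of Ogdh was 502.1 ± 125.1 CPM for EA, against 429.6 ± 102.1 CPM for CPX (SD of 3 libraries), which is 0.23 on the log2 scale (SE 0.29, edgeR adjusted p = 0.997). The mean of Fh1 was 173.5 ± 43.0 CPM for EA, against 203.3 ± 99.2 CPM for CPX, a difference of -0.23 (SE 0.36, edgeR adjusted p = 0.997), with an interval from 0.479-fold to 1.52-fold. The direction rested on single CPX libraries: without CPX 4 all 9 members were higher in EA (0.15 to 0.58, median 0.33), and without CPX 6 8 of 9 were lower (median -0.39). It also depended on scaling, since with column sums alone all 9 members were positive (0.049 to 0.45) and the median of all genes was 0.10.

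MPX and CPX, the groups with no treatment label, were compared last, and which of them is ND or HFD is not given. None of the 9 members passed by edgeR (0% of all genes, against 201 genes by DESeq2), 0 had an unadjusted p under 0.05, against 13.2% of all genes (4.98% higher and 8.21% lower), and DESeq2 and limma voom called 0 members. Of the members, 4 had positive differences (Idh3a, Ogdh, Suclg1 and Mdh2) and 5 negative ones, against 40.7% and 59.3% of all genes, with a median of -0.020 beside -0.11 over all genes. All 9 overlapped, against 8.46% of all genes higher and 7.71% lower in MPX without overlap. The mean of Idh3a was 404.9 ± 49.9 CPM for MPX, against 311.0 ± 207.9 CPM for CPX (SD of 3 libraries), which is 0.38 on the log2 scale (SE 0.53, edgeR adjusted p = 0.733). The mean of Idh3b was 212.3 ± 35.7 CPM for MPX, against 263.7 ± 163.5 CPM for CPX, a difference of -0.31 (SE 0.42, edgeR adjusted p = 0.727). The interval was 0.559-fold to 3.03-fold for Idh3a and 0.411-fold to 1.58-fold for Idh3b. Without CPX 4 all 9 members stood higher in MPX (0.11 to 1.01, median 0.33), and without CPX 6 8 of 9 stood lower (median -0.23). Over all comparisons and settings tried, the smallest unadjusted p of any member was 0.0544 (Suclg1, MPX minus CPX without CPX 4, edgeR adjusted p = 0.217).

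**Figure D3:**
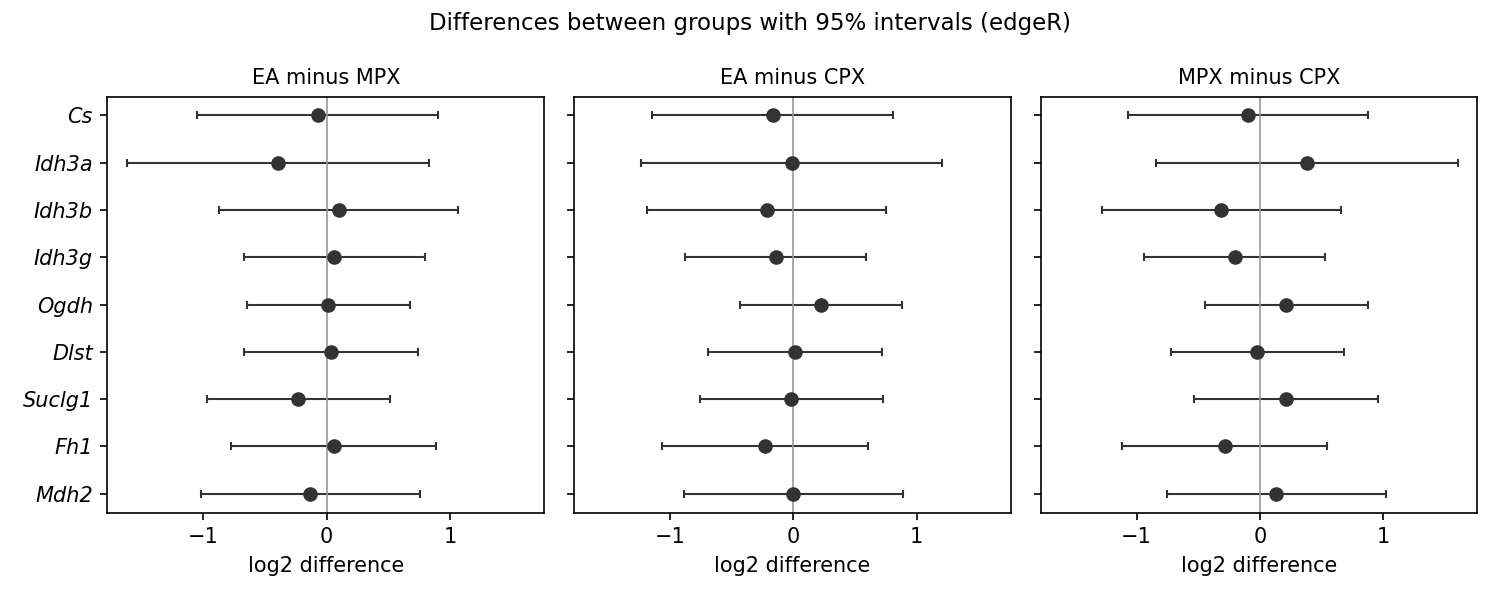
Log2 differences (horizontal axes) of the 9 members in the 3 comparisons, with 95% intervals from edgeR's quasi-likelihood fit of all 9 libraries; positive values are higher in the group named first. Every interval crosses 0, and Idh3a has the widest in each panel.

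The balance between members within a library does not depend on how libraries are scaled, and it was examined next. Each member's share was its CPM per kb as a percent of the sum over the 9 members in that library. The Idh3a share was 11%, 11.2% and 8.28% in EA 5, 7 and 8, against 11.9%, 13.2% and 13.8% in MPX 2, 5 and 7, and 11.3%, 6.04% and 10.3% in CPX 4, 6 and 8. All 3 MPX libraries lay above all EA and CPX libraries, while EA and CPX overlapped. The difference in share was -2.82 percentage points for EA minus MPX and 3.76 points for MPX minus CPX, each with an exact two-sided permutation p of 0.1, the smallest that 3 libraries against 3 can give, and 0.54 when adjusted over the 27 shares compared. Dlst made up 4.56%, 4.57% and 4.82% in EA, against 4.51%, 4.28% and 4.18% in MPX. Fh1 made up 8.82%, 7.64% and 7.51% in MPX, against 9.94%, 9.29% and 9.76% in CPX. Shares without overlap were thus found for 2 of 9 members in EA against MPX (1 higher, 1 lower), 0 of 9 in EA against CPX, and 2 of 9 in MPX against CPX (1 higher, 1 lower). Of all genes, taken relative to the same sum, 6.14% stood higher and 8.06% lower in EA than in MPX without overlap, 1.29% and 2.02% in EA against CPX, and 6.64% and 5.03% in MPX against CPX. Each member is part of that sum and other genes are not, so these percentages are only a rough background.

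Among the isocitrate dehydrogenase subunits the ratio of Idh3a to Idh3b per kb was 1.04, 1.00 and 0.651 in EA 5, 7 and 8, against 1.06, 1.49 and 1.37 in MPX 2, 5 and 7 and 0.789, 0.547 and 0.962 in CPX 4, 6 and 8. All MPX libraries were above both other groups, but EA 5 and MPX 2 were nearly equal. The ratio of Idh3b to Idh3g was 0.841, 0.891 and 0.991 in EA, 0.874, 0.831 and 0.906 in MPX, and 1.17, 0.73 and 0.762 in CPX, and overlapped between all groups. Of the 36 pairs of members, 14 had ratios that did not overlap between EA and MPX (7 of them with Idh3a), 3 between EA and CPX, and 10 between MPX and CPX (4 with Idh3a). Over all pairs of genes in the table the same was true of 39.8% for EA against MPX, 6.59% for EA against CPX, and 17% for MPX against CPX, so that the count for EA against MPX, 38.9%, was near the background. Nothing particular to these genes was therefore read from the ratios of EA against MPX.

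**Figure D4:**
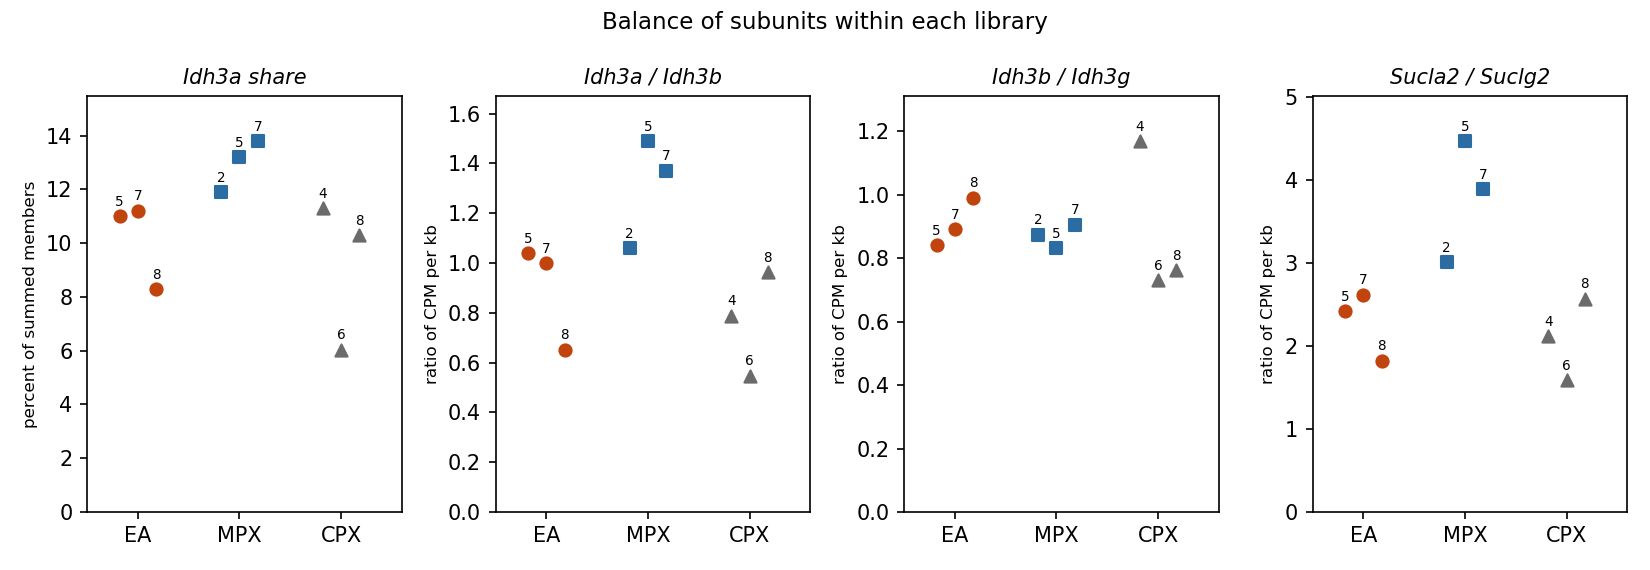
Idh3a as a percent of the summed members, and ratios of CPM per kb for Idh3a to Idh3b, Idh3b to Idh3g and Sucla2 to Suclg2 (vertical axes, from 0), in each library; numbers beside points are library numbers. MPX lies above EA and CPX in every panel but that of Idh3b to Idh3g, where all groups overlap. Over all pairs of genes, 39.8% of ratios did not overlap between EA and MPX, and 17% between MPX and CPX.

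Other enzymes of the cycle, on a list of 8 genes made with earlier results of these data known, were all in the count table, among them Sdhb, Suclg2 and Sucla2. None of the 8 passed by edgeR in any comparison. Of the 8, 4 had positive differences in EA minus MPX (51.4% of all genes), 1 in EA minus CPX (39%) and 2 in MPX minus CPX (40.7%). Their median log2 differences were -0.034, -0.28 and -0.12 in the same order. Sdhb, the iron-sulfur subunit of succinate dehydrogenase, averaged 201.7 ± 46.7 CPM for EA, 172.3 ± 37.2 CPM for MPX and 270.8 ± 183.4 CPM in CPX (SD of 3 libraries per group), with 479.1 CPM in CPX 4. Suclg2 and Sucla2 encode the GTP-forming and ATP-forming partners of Suclg1. The ratio of Sucla2 to Suclg2 per kb was 2.42, 2.62 and 1.82 in EA, 3.01, 4.47 and 3.89 in MPX, and 2.12, 1.59 and 2.57 in CPX, so that all 3 MPX libraries stood above the others; the percentages of gene pairs given above are the background for it too.

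Lists around the cycle showed no member past the adjusted threshold either. For 15 listed genes of mitochondrial beta oxidation, which feeds acetyl-CoA to the cycle, the median was -0.19 in EA minus MPX, 0.12 in EA minus CPX and 0.26 in MPX minus CPX, with 5, 12 and 12 positive differences. For 18 nuclear respiratory chain genes it was -0.084, -0.25 and -0.22, with 6, 1 and 2 positive. For 10 mitochondrially encoded genes it was -0.27, -1.28 and -1.01, with 1, 0 and 0 positive, and 0, 4 and 2 of them had an unadjusted p under 0.05 by edgeR. The background for every list here is the share of all genes. Positive differences made up 51.4%, 39% and 40.7% of all genes in the 3 comparisons, and 5.1%, 2.96% and 13.2% had an unadjusted p under 0.05 by edgeR. In CPX 4 the average deviation was 0.63 for the members, 0.94 for the other cycle enzymes, 1.11 for the nuclear respiratory chain and 2.02 for the mitochondrially encoded genes, and in CPX 6 it was -0.76, -0.79, -0.64 and -0.46. Among 6 listed genes of the cytosolic and NADP-linked side steps, Acly, ATP citrate lyase, averaged 371.9 ± 183.9 CPM for EA, 313.0 ± 59.8 CPM for MPX and 1188 ± 742.7 CPM in CPX (SD of 3 libraries per group). The log2 difference of Acly was -1.68 in EA minus CPX (edgeR adjusted p = 0.997) and -1.92 in MPX minus CPX (edgeR adjusted p = 0.362), and that of Cs was -0.17 and -0.095. Of 7 pyruvate entry and anaplerosis genes 2, 1 and 2 were positive in the 3 comparisons, with Pdhb at 219.7 ± 93.0 CPM for EA, 216.3 ± 17.3 CPM for MPX and 348.3 ± 237.6 CPM in CPX. Of 7 mitochondrial carriers 3, 2 and 2 were positive, with the citrate carrier Slc25a1 at 323.5 ± 168.5 CPM for EA, 444.5 ± 140.5 CPM for MPX and 690.9 ± 660.3 CPM in CPX.

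The 8 genes outside the members whose library pattern was most like the members' mean were Uqcrc1, Pmpcb, Atp5b, Nipsnap2, Ghitm, Immt, Sdha and Clpb. Likeness was the root mean square difference of centred log2 CPM over the 9 libraries, which ran from 0.062 for Uqcrc1, a core protein of respiratory complex III, to 0.11 for Clpb, a mitochondrial disaggregase. The median of all other genes was 0.55, and the spread of the members' mean pattern itself was 0.38. Of the members, Cs (0.10), Dlst (0.11), Suclg1 (0.11) and Mdh2 (0.11) lay close to their own mean, and Ogdh (0.22) and Idh3a (0.35) farthest from it. Each member is itself part of that mean, so these values cannot be set beside those of the outside genes. Uqcrc1 stood at 0.42, -0.17 and -0.35 in EA 5, 7 and 8, at 0.12, 0.049 and 0.22 in MPX 2, 5 and 7, and at 0.52, -0.73 and -0.083 in CPX 4, 6 and 8 on the centred log2 scale, close to the members' mean in each library.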

How the data were processed

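The deposited table holds the authors' unnormalized counts for each gene and library beside gene annotation, per the file headers. Libraries came from total RNA with an Illumina TruSeq kit, per the labels' protocols, which name retinas although the tissue is labelled adipose. Reads were aligned with HISAT2 2.0.5 to mm10, per the submitters' processing notes. The table lists the 3958 most abundant genes, down to 8471 counts in total, and breaks off within its final line, so CPM is relative to listed counts. The names of 11 genes were restored from their IDs. Gene lengths in bases are another value of the deposited table and served for CPM per kb.

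The test was edgeR 4.0.16 (R 4.3.3), as 1 fit of all 9 libraries with a mean per group, TMM, filterByExpr and robust quasi-likelihood estimation. DESeq2 1.42.0 and limma 3.58.1 served as alternatives. Log2 values have a prior count of 1. Each SE was derived from the difference and its F statistic, and 95% intervals from the SE and the fit's degrees of freedom. The method was tested on simulated data. No replicate pair held near-identical counts (chi-square per degree of freedom at least 71.5). Members, lists and tests were chosen with earlier results of these data known; all members, the other cycle enzymes and up to 2 genes per further list with the smallest p were to be named, of which the text gives some. One item is not reported here.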

Additional observations from a re-analysis of the deposited data

How the results depend on the processing

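No member passed an adjusted p of 0.05, or an unadjusted p of 0.05, in any comparison under any alternative tried: other scalings, no filter, DESeq2, limma voom, robust estimation off, only the groups compared, each library left out, CPX 4 and CPX 6 left out together (which leaves CPX 8 alone, on the assumption that it varies as the EA and MPX libraries do), and, for EA minus MPX, the library number as a block. The filter removed no gene, so its alternative says nothing about stability. Over all genes, calls in EA minus MPX numbered 49 with DESeq2, 84 with only the 2 groups compared, 80 without CPX 4 and 6, and 0 to 23 with a library left out (23 without CPX 6). Calls in EA minus CPX numbered 5 with DESeq2 and 0 to 12 with a library left out (12 without CPX 6), and in MPX minus CPX 201 with DESeq2 and 0 to 168 (168 without CPX 8). The cause was not tested.

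The sign of many of the members' small differences was not stable. With column sums alone it turned for Cs (0.017) in EA minus MPX, for Cs (0.10), Idh3a (0.29), Idh3b (0.090), Idh3g (0.11), Suclg1 (0.25), Fh1 (0.049) and Mdh2 (0.28) in EA minus CPX, and for Cs (0.086) and Dlst (0.14) in MPX minus CPX. With upper quartile factors it turned for Idh3a (0.12), Suclg1 (0.12) and Mdh2 (0.14) in EA minus CPX and for Cs (0.0089) and Dlst (0.084) in MPX minus CPX. With limma voom it turned for Ogdh (-0.010) in EA minus MPX, Idh3a (0.15), Suclg1 (0.040) and Mdh2 (0.071) in EA minus CPX, and Dlst (0.016) in MPX minus CPX. With only EA and MPX, and also without CPX 4 and 6, Ogdh was at -0.018 in EA minus MPX. Without CPX 4 and 6 it turned for Idh3a (0.0094), Idh3b (0.082), Suclg1 (0.12) and Mdh2 (0.28) in EA minus CPX, and for Idh3b (0.013) and Dlst (0.096) in MPX minus CPX. The TMM factor of CPX 4 was 0.753, against 0.981 to 1.10 in the other libraries.

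With each library left out in turn, log2 differences in EA minus MPX ran from -0.42 to 0.12 for Cs, -0.084 to 0.18 for Idh3b, -0.19 to 0.20 for Idh3g, -0.21 to 0.15 for Ogdh, -0.20 to 0.16 for Dlst, -0.17 to 0.16 for Fh1, -0.72 to -0.15 for Idh3a, -0.43 to -0.067 for Suclg1 and -0.39 to -0.0004 for Mdh2. In EA minus CPX they ran from -0.51 to 0.23 for Cs, -0.44 to 0.58 for Idh3a, -0.55 to 0.40 for Idh3b, -0.39 to 0.15 for Idh3g, -0.22 to 0.32 for Dlst, -0.27 to 0.37 for Suclg1, -0.54 to 0.20 for Fh1 and -0.29 to 0.52 for Mdh2. In MPX minus CPX they ran from -0.41 to 0.33 for Cs, -0.032 to 1.01 for Idh3a, -0.64 to 0.33 for Idh3b, -0.44 to 0.11 for Idh3g, -0.23 to 0.32 for Dlst, -0.036 to 0.63 for Suclg1, -0.59 to 0.17 for Fh1 and -0.14 to 0.68 for Mdh2. Ogdh stayed positive in both CPX comparisons, at 0.0069 to 0.36 in EA minus CPX and 0.026 to 0.35 in MPX minus CPX.

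EA and MPX share the numbers 5 and 7, which the labels do not tie to a shared animal or day. Deviations of same-numbered libraries correlated across genes at 0.02 and 0.127, and at -0.506 for EA 8 and CPX 8, while pairs with different numbers ran from -0.67 to 0.713; the numbers were therefore not taken as pairs. With the replicate block, 6 genes and 0 members were called in EA minus MPX, and Cs was at 0.054. The CPX comparisons could not be paired, since EA and CPX share 1 number and MPX and CPX share none.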
